A study of Mus musculus with 2 samples.

Results

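Titin, nebulin, the M band proteins and cardiac myosin binding protein C are the long ruler and crosslinking proteins that hold the filaments of the heart's sarcomere in register. The 8 genes described here, of 55536 in the tables, were matched by gene name and Ensembl identifier: Ttn, Mybpc3, Myom1, Myom2, Myom3, Obsl1, Neb and Nebl. All 8 were found, and every transcript of theirs with at least 5% of its gene's TPM in either library is covered, which was 32 of 84 annotated transcripts.

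The material was total RNA of heart tissue from adult, 8- to 10-month-old females labelled 5xFAD/CAST, a cross of those strains. It was sequenced from 300 ng of RNA with spike-in RNAs added. 5xFAD mice, a model of Alzheimer's disease, have mutant human transgenes under control of the Thy1 promoter, which acts mainly in neurons. The CAST strain descends from wild-caught mice. The 2 libraries form 1 group with no untreated, transgene-free or other-strain samples, so no difference between conditions could be tested. They have separate biosample entries but 1 donor identifier, so each SD (n = 2) below measures the spread between these libraries and may be technical.

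Depth was 45599940 expected counts in replicate 1 and 40801299 in replicate 2. Levels are in TPM, which divides reads by transcript length and scales each library to the same sum, taken here over endogenous genes. Heart muscle was well represented: 8 of 8 cardiomyocyte markers reached 1 TPM in both libraries, against 49.0% of protein-coding genes. The summed level of these markers was 30109 and 33065 TPM. Each quantity comes from tables built on an alignment to the transcriptome unless it is named as a direct value, which comes from the authors' second set of tables, made directly from reads. In RNA of a tissue, fewer cells of a type and less RNA per cell cannot be told apart.

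Titin spans from the Z disc, where it is capped by telethonin, to the M band in the middle of the sarcomere, and its extensible I band part acts as a molecular spring. The length of that spring is set by splicing, under the control of RBM20 among other factors. Short cardiac titin is the N2-B form. The longer N2-A form is typical of skeletal muscle and keeps many more I band exons. Myomesins crosslink myosin filaments at the M band, obscurin-like 1 binds titin and myomesin there, and cardiac myosin binding protein C decorates the inner thick filament. Nebulin runs along the thin filaments of skeletal muscle, and the much shorter nebulette is its cardiac relative at the Z disc.

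The sequences that separate the main splice forms are shown first, because most of the differences among transcripts of these genes rest on single exon joins. They were taken from the GENCODE M21 transcripts (mm10) and are written 5′ to 3′ along the transcript. Bases before a join are in lower case, and bases after it are in capitals. All lie in coding sequence. In Ttn, on the minus strand of chromosome 2, the N2-B transcript Ttn-201 passes over exon 11 and over exons 48 to 201 of Ttn-203, the annotated transcript with the most exons. Exons are counted from the 5′ end. Ttn-202 leaves the common path and ends in an exon of its own, at chr2:76913944-76920463.
Ttn-201 over exon 11: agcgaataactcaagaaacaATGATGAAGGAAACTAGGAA
Ttn-201 over exons 48 to 201: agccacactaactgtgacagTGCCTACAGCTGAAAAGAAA
Ttn-202 into its last exon: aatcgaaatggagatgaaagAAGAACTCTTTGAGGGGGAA

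The Myom1 joins show how the coding transcripts Myom1-202 and Myom1-203 differ over 1 exon of 294 bases, at chr17:71082203-71082496 on the plus strand. This exon encodes the segment of EH-myomesin, the myomesin form known from embryonic heart. The whole exon is in capitals in the last line.
Myom1-203 past the exon: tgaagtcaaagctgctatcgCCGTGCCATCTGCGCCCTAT
Myom1-202 into the exon: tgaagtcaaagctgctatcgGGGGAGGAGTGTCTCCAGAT
Myom1-202 out of the exon: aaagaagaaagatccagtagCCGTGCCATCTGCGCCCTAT
Myom1-202 exon: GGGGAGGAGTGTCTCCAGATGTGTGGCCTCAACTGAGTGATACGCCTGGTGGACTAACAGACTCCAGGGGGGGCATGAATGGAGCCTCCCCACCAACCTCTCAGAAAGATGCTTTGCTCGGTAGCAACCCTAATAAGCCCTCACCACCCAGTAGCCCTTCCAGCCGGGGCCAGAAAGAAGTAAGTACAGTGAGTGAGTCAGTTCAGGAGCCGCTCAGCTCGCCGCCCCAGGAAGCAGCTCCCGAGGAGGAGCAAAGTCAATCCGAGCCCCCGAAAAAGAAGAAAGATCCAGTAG

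The Nebl joins show where nebulette (Nebl-202) and LIM-nebulette (Nebl-201), which have different first exons, meet in the shared exon at chr2:17374185-17374356 on the minus strand.
Nebl-202 into the shared exon: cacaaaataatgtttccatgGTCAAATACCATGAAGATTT
Nebl-201 into the shared exon: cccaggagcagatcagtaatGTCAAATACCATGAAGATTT

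The Mybpc3 lines show a very small exon, in capitals, with 20 bases on each side. It is 12 bases long in Mybpc3-203, at chr2:91122636-91122647 on the plus strand, and 9 bases long in Mybpc3-201, which starts 3 bases later.
Mybpc3-203 exon: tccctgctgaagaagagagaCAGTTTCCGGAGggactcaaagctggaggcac
Mybpc3-201 exon: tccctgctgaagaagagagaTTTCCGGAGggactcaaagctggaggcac

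Titin was the most abundant of the 8 genes when all annotated transcripts of each gene, short fragments included, were summed. The gene levels and ratios given for it are such sums. Ttn (ENSMUSG00000051747.14, chr2:76703980-76982547, minus strand) stood at 1001 TPM in replicate 1 and 1021 TPM in replicate 2, a mean of 1011 ± 13.6 (SD, n = 2). It ranked 45 of 22028 protein-coding genes by TPM but 2 by expected count, with 1290601 and 1144368 counts, since a transcript this long collects many reads. Those counts were 2.84% and 2.81% of all endogenous counts. The 8 genes together took 3.24% and 3.22%. Per length, Ttn was at 0.130 and 0.132 of the level of Myh6, the adult cardiac myosin heavy chain (7705 and 7744 TPM), and at 0.686 and 0.687 of that of Tcap, the telethonin gene (1459 and 1485 TPM).

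The thick filament gene Mybpc3 (ENSMUSG00000002100.15, chr2:91118144-91136516, plus strand) came next. It stood at 489 and 542 TPM, a mean of 515 ± 37.4 (SD, n = 2). The ratio of Ttn to Mybpc3 was 2.05 in replicate 1 and 1.88 in replicate 2, with the fragments of Ttn included. By single transcripts the order was reversed. The N2-B transcript Ttn-201 stood at 351 and 363 TPM, and Mybpc3-203 at 487 and 539 TPM. Of the skeletal muscle paralogs, Mybpc2, the fast form, was at 4.70 and 5.35 TPM. Mybpc1, the slow form, was at 0.10 and 0.16 TPM, with 14 and 19 counts.

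At the M band, Myom1 and Myom2 were both abundant and Myom3 was not. Myom1 (ENSMUSG00000024049.15, chr17:71002633-71126856, plus strand), which encodes myomesin itself, stood at 324 and 334 TPM, a mean of 329 ± 6.54 (SD, n = 2). Myom2 (ENSMUSG00000031461.4, chr8:15057653-15133541, plus strand), the M-protein gene, stood at 212 and 197 TPM, a mean of 205 ± 10.7 (SD, n = 2). The groups of values did not overlap, with Myom1 at 1.53 and 1.69 of the level of Myom2.

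That ratio depended on which transcripts were counted. Over protein-coding transcripts alone, Myom1 was at 1.03 and 1.15 of the level of Myom2, and in the direct tables, over all transcripts, at 1.08 and 1.17. Over coding transcripts in the direct tables it was at 1.15 and 1.29. Myom1 was the higher of the pair in both libraries by all 4 of these sums, by a margin that ranged from a few percent to over 1.5-fold. By single transcripts it was not, with Myom1-203 at 176 and 187 TPM and Myom2-201 at 204 and 191 TPM. The direct values were 172 and 182 TPM against 181 and 170 TPM, so there the order differed between the libraries.

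Myom3 (ENSMUSG00000037139.15, chr4:135759715-135815564, plus strand), the third myomesin gene, stood at 0.503 and 0.553 TPM, with 52 counts in each library. It was the only one of the 8 below 1 TPM, and Myom2 was 422 and 357 times as high. Obsl1 (ENSMUSG00000026211.17, chr1:75479310-75506452, minus strand) stood at 41.6 and 39.4 TPM, a mean of 40.5 ± 1.54 (SD, n = 2), between the 2 abundant myomesins and Myom3.

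Of the nebulin family, the cardiac member was far above the skeletal one. Nebl (ENSMUSG00000053702.16, chr2:17343909-17731464, minus strand) stood at 103 and 113 TPM, a mean of 108 ± 6.79 (SD, n = 2). Neb (ENSMUSG00000026950.17, chr2:52136647-52378474, minus strand) stood at 2.70 and 5.61 TPM, with 935 and 1483 counts, so it was low in level but, as a whole gene, well covered by reads. The ratio of Nebl to Neb was 38.3 in replicate 1 and 20.1 in replicate 2, and it was 65.9 and 33.5 in the direct tables. Neb lay at percentile 29.8 of the protein-coding genes detected, whose median was 7.80 TPM.

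**Figure D1:**
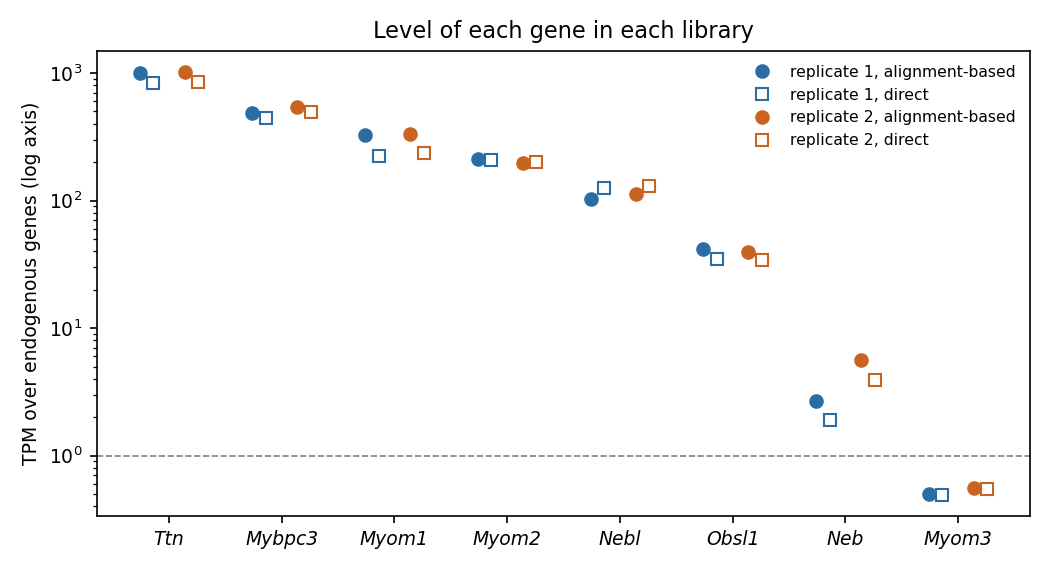
TPM of each gene in each library, on a log axis, with filled circles for the alignment-based tables and open squares for the direct tables. The dashed line marks 1 TPM, and Myom3 is the 1 gene below it. Neb is the gene whose libraries stand farthest apart.

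In all, 7 of the 8 genes reached 1 TPM in both libraries, against 10784 of 22028 protein-coding genes (49.0%). The order Ttn, Mybpc3, Myom1, Myom2, Nebl, Obsl1, Neb, Myom3 held in each library on its own, by expected counts and in the direct tables, with 28 of 28 pairs of genes in the same order each time. No pair of neighbours in that order had overlapping values. The closest, Myom1 and Myom2 in the direct tables, stood at 225 and 237 TPM against 209 and 202 TPM. The direct tables gave lower levels for Myom1, for Neb (1.90 and 3.92 TPM), Ttn (829 and 846), Obsl1 (34.6 and 34.1) and Mybpc3 (444 and 497), and a higher one for Nebl (125 and 131). The ratio of the alignment-based to the direct level was highest for Myom1 (1.44 and 1.41) and Neb (1.42 and 1.43).

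The genes nearest in level over the 2 libraries were of mixed kind. Nearest to Ttn were Cox6c, a cytochrome oxidase subunit (976 and 1024 TPM), and Fth1, the ferritin heavy chain (1036 and 995 TPM). Nearest to Mybpc3 were the small heat shock protein gene Hspb7 (488 and 521 TPM) and the ribosomal protein gene Rpl41 (508 and 537 TPM). Cox7a2 and Cst3 lay nearest to Myom1, and Sod1 and Cpt1b nearest to Myom2. Over 2 libraries such likeness describes a level and no more.

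The titin signal divided among a few of 25 annotated transcripts, and 5 reached 5%. The N2-B transcript Ttn-201, of 81843 bases and 192 exons, stood at 351 and 363 TPM, which was 35.03% and 35.52% of the gene's TPM. Because of its length it took 86.1% and 86.4% of the gene's expected counts. Ttn-215, an annotated 5′ fragment of 2159 bases, stood at 292 and 286 TPM, which was 29.18% and 28.03% of the gene's TPM. Ttn-218, a fragment from the I band of 51 exons and 10229 bases, held 15.2% and 15.4%. Ttn-219, another I band fragment, held 7.18% and 7.42%.

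The fifth was Ttn-202, which ends early in its own last exon of 6520 bases and corresponds to the short novex-3 form. It stood at 62.9 and 64.5 TPM, or 6.28% and 6.32% of the gene's TPM. In the direct tables it stood at 34.8 and 34.4 TPM, below 5% of the gene's TPM. Of its 31-base words 38.5% occur in no other Ttn transcript, against 0.03% for Ttn-201 and 0% for Ttn-215, so most reads of Ttn could not be assigned to 1 transcript by sequence alone.

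The 3 long transcripts that keep the middle I band exons had low estimates. Ttn-203, with 347 exons, stood at 0.03 and 0.07 TPM, and the N2-A transcripts Ttn-204 and Ttn-205 stood at 10.0 and 10.6 TPM and at 1.56 and 0.66 TPM. Set against Ttn-201, these 3 made up 3.20% and 3.02% of the combined level, and 5.99% and 5.71% in the direct tables. These 3 transcripts were thus estimated at more than an order of magnitude below Ttn-201 in both libraries and both kinds of table. Many of their exons are also in annotated I band fragments, whose level is given below. The estimates therefore do not show how much titin RNA kept those exons.

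Summing transcripts over each exon gives a profile along the gene. Of the 347 exons of Ttn-203, 192 are in Ttn-201 and 155, with 24981 bases, are not. The 146 exons after the long join, which encode the end of the I band, the A band and the M band parts, had a median summed level of 362 and 374 TPM. Exons 2 to 10, toward the Z disc end, had a median of 725 and 731 TPM, 200.03% and 196% of that level, with the fragment Ttn-215 included. The direct figures were 168% and 162%.

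Within the exons that Ttn-201 passes over, the level was uneven. Exons 48 to 74 had a median of 11.7 and 11.3 TPM, with exon 66 lowest at 0.131 and 0.101 TPM. Exons 75 to 105 stood at 164 and 168 TPM, which was 45.2% and 45.0% of the median of the exons after the join. Exons 106 to 113 stood at 279 and 292 TPM, or 77.1% and 78.1%. Exons 114 to 201 returned to a median of 11.7 and 11.3 TPM, with peaks such as exons 141 and 142 at 207 and 215 TPM. The ranges follow where Ttn-218 and Ttn-219 begin and where they part, and they were chosen after the profile was seen. In all, 110 of the 155 exons lay under 100 TPM in both libraries, and 11 lay over 200 TPM in both.

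Most of the level of exons 75 to 113 was that of annotated I band fragments, led by Ttn-218, Ttn-219 and Ttn-222. Together the I band fragments that hold exons 106 to 113 stood at 268 and 281 TPM. That was 43.3% and 43.6% of the sum of these fragments and Ttn-201. In the direct tables the share was 43.9% and 44.1%, so the profile of exons 75 to 113 was alike in both kinds of table. Short fragments further along are outside this sum and were less alike. Ttn-220, for example, was at 0 TPM in both libraries and at 10.0 and 12.8 TPM in the direct tables. Which full-length molecules carry these exons cannot be read from the deposited estimates.

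**Figure D2:**
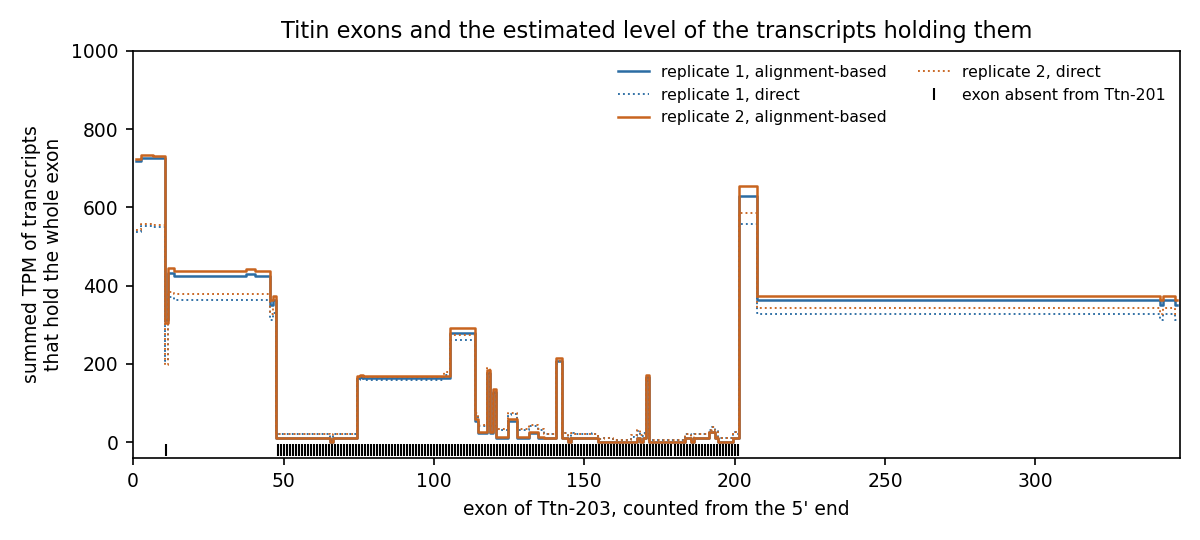
Summed TPM of the Ttn transcripts that hold the whole of each exon of Ttn-203, in order from the 5′ end, for each library (solid, alignment-based; dotted, direct), with ticks under exons absent from Ttn-201. In the solid lines, exons 48 to 74 have a median of 11.7 and 11.3 TPM, exons 75 to 105 one of 164 and 168 TPM, and the exons after 201 lie at 351 TPM or more.

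Exon 11, of 138 bases, is passed over by a join of its own. It had a summed level of 311 and 304 TPM, and 207 and 197 TPM in the direct tables. Transcripts with the exon (Ttn-203, Ttn-204, Ttn-205 and the fragment Ttn-215) made up 42.3% and 41.0% of the combined level of these and Ttn-201 and Ttn-202, which lack it. Ttn-207, a retained-intron transcript that also holds the exon (7.37 and 6.61 TPM), was left out of this share. In the direct tables the share was 36.7% and 34.7%. Nearly all of the level with the exon was that of Ttn-215, and this contrast was chosen after the values were seen.

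Myom1 gave a simpler picture among its coding transcripts. Myom1-203, without the 294-base exon, stood at 176 and 187 TPM, and Myom1-202, with it, at 30.8 and 32.3 TPM. The share of transcripts with the exon, among Myom1-201, Myom1-202 and Myom1-203, was 14.7% in each library (14.7% ± 0.0376, SD, n = 2). The direct share was 15.2% and 16.2%. Myom1-201 also lacks the exon and stood at 2.79 and 0 TPM.

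A short 3′ fragment, Myom1-208, set the gap between the tables for this gene. It has 941 bases and is annotated as a processed transcript, without a coding sequence. It stood at 110 TPM in both libraries in the alignment-based tables, 34.0% and 33.1% of the gene's TPM, and at 11.5 and 12.8 TPM in the direct tables. The coding share of Myom1 was accordingly 64.6% and 65.7% in the alignment-based tables and 92.3% and 93.0% in the direct tables. The 5′ end of Myom1 also overlaps Myl12a, a myosin light chain gene on the opposite strand at 283 and 325 TPM. Whether counting used the strand is not given in the sources used here, so reads from the overlap are uncertain. Of the Myom1 transcripts, only Myom1-209 reaches into the overlap. It stood at 0.08 and 0.09 TPM, and at 2.83 and 3.05 TPM in the direct tables.

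Mybpc3 and Myom2 were each carried by 1 transcript. Mybpc3-203, with the 12-base exon, held 99.56% and 99.57% of the gene's TPM. Mybpc3-201, with the 9-base exon, stood at 0.62 and 1.12 TPM. Myom2-201 held 96.0% and 96.8% of the level of Myom2, and 86.6% and 84.4% in the direct tables. There the 262-base fragment Myom2-204 stood at 22.6 and 25.4 TPM, against 5.71 and 3.96 TPM in the alignment-based tables.

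The estimates placed a large part of the level of Obsl1 and Myom3 on transcripts annotated as retained introns. For Obsl1, Obsl1-202, with 5412 coding bases, held 45.1% and 43.2%, and the coding fragment Obsl1-205 held 17.2% and 17.5%. Its 8 retained-intron transcripts summed to 33.1% and 32.8%. They include Obsl1-213 (9.24% and 11.96%), Obsl1-207 (8.91% and 9.44%), Obsl1-203 (5.27% and 4.48%) and Obsl1-212 (5.10% and 4.82%). The direct shares were lower for Obsl1-213, at 2.36% and 5.38%, and for Obsl1-212, at 1.34% and 0.34%. For Myom3, the retained-intron transcript Myom3-203 held 79.8% and 87.1%, and Myom3-201, the 1 coding transcript, held 11.6% and 12.9%. Myom3-202 held 8.52% in replicate 1 and 0% in replicate 2. With 52 counts per library, the Myom3 shares rest on few reads.

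Between its named forms, Nebl had more nebulette than LIM-nebulette. Nebl-202, of 28 exons, stood at 29.4 and 32.8 TPM and took 72.9% and 73.1% of the gene's counts. Nebl-201, of 7 exons, stood at 6.17 and 7.25 TPM. The ratio of nebulette to LIM-nebulette was 4.77 and 4.53, and it was 12.98 and 12.17 in the direct tables. By TPM the short Nebl-208, a non-coding fragment of 436 bases, stood slightly above Nebl-202, with 31.5% and 33.4% of the gene's level against 28.5% and 29.1%. The gap was wider in the direct tables, at 38.9% and 36.1% against 23.8% and 25.7%. Nebl-208 has 0% of its 31-base words to itself. The coding fragment Nebl-210 held 20.4% and 18.3%, and the non-coding Nebl-212 held 8.74% and 5.90%. Nebl-209 was listed at 0 in the alignment-based tables and stood at 12.3 and 14.8 TPM in the direct ones.

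Neb was spread over the most transcripts, with 8 at 5% or more in either library. The long coding transcript Neb-202, of 157 exons, held 31.1% and 25.4% of the TPM and 78.1% and 71.7% of the counts. The coding fragment Neb-210, of 1027 bases, stood at 0.20 TPM in replicate 1 and 1.15 TPM in replicate 2, which was 7.40% and 20.4% of the gene's TPM. Its direct level was 0.16 and 1.09 TPM, and its expected counts were 7.19 and 35.44. The others were Neb-213 (12.9% and 12.3%), Neb-204 (11.4% and 14.4%), Neb-208 (11.8% and 8.22%), Neb-201 (9.11% and 11.5%), Neb-209 (7.86% and 3.46%) and Neb-206 (7.45% and 0.92%). In the direct tables Neb-204 held 0.92% and 0%, and Neb-208 held 4.82% and 1.45%. Apart from Neb-202 and Neb-201, none of the 8 took more than 39.77 expected counts in a library (Neb-213 in replicate 2). The shares of those transcripts, and the shift of Neb-210 between the libraries, therefore rest on few reads.

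**Figure D3:**
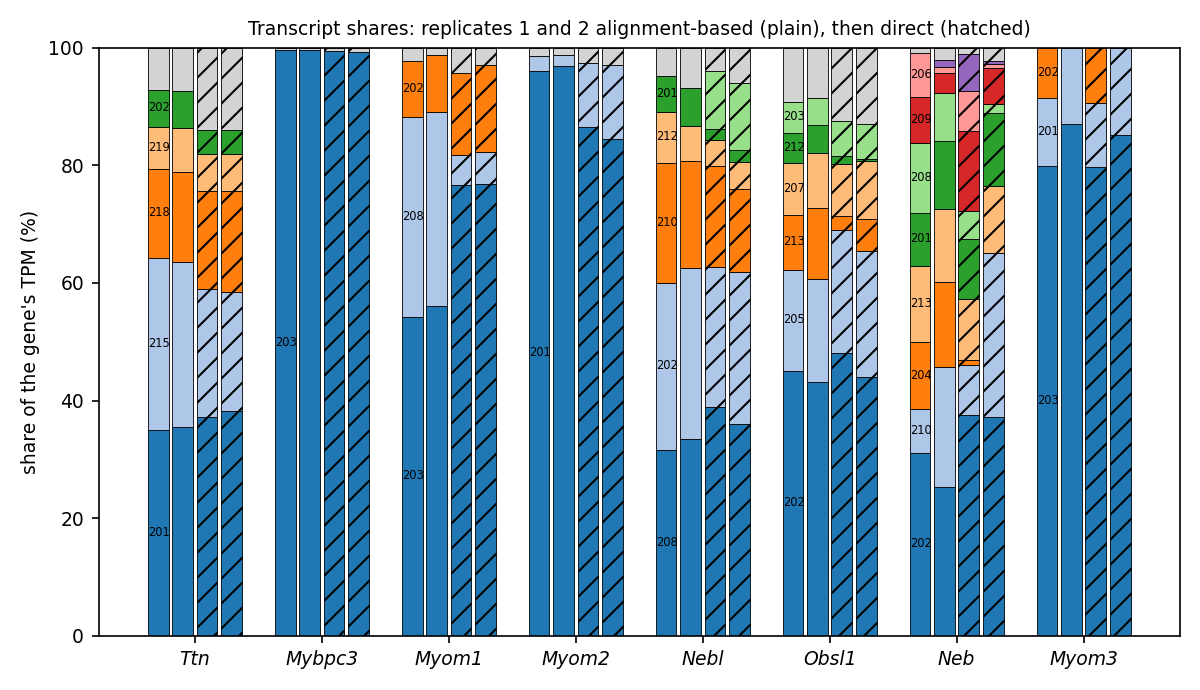
Share of each gene's TPM on its transcripts, as stacked bars that add to 100%, for replicates 1 and 2 in the alignment-based tables (plain) and then in the direct tables (hatched). Numbers are the transcript suffixes (201 is Ttn-201 in the Ttn bars), colours repeat between genes, and grey is the sum of transcripts under 5% in all 4 bars. The 2 libraries look alike within a kind of table for most genes, and for Myom1 the tables differ, with transcript 208 at 34.0% in plain and 5.13% in hatched bars of replicate 1.

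Between the libraries, shares were close for 6 of the genes. Over the 32 transcripts the median difference was 1.23 percentage points, and 5 transcripts differed by 5 points or more, all of Neb or Myom3, which had the lowest levels. For the 21 transcripts of the other genes the largest difference was 2.84 points. The kind of table moved shares more: the median difference between the alignment-based and direct means was 3.76 points, and 9 transcripts differed by 5 points or more. Of the 32 transcripts, 21 are annotated as protein-coding, 6 as retained introns and 5 as processed transcripts.

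The level of 7 of the 8 genes differed little between the libraries. With counts scaled by edgeR's TMM, the log2 ratio of replicate 2 to replicate 1 was -0.02 for Ttn, -0.01 for Myom1, 0.08 for Mybpc3 and 0.09 for Nebl. It was -0.16 for Myom2 and -0.17 for Obsl1. For Myom3 it was 0.14, and its counting interval ran from 0.740 to 1.66-fold. None of the 8 lay 2-fold apart, against 71 of the 12492 genes whose counts averaged 50 or more (0.568%). The median size of the log2 ratio was 0.115 over the 8 and 0.108 over all those genes. Scaled by the spike-in totals, which moved the median of all genes from -0.01 to 0.21, all 8 log2 ratios were positive, so the signs of Ttn, Myom1, Myom2 and Obsl1 depend on the scaling. That scaling shifts all genes alike. Myom1 was also at 0.0003 with total endogenous counts and at 0.0011 in the direct tables.

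Neb stood apart. Its counts were 935 in replicate 1 and 1483 in replicate 2, and the scaled count was 1.76 times as high in replicate 2, with a 95% counting interval of 1.62 to 1.91 (log2 ratio 0.81). It was the only one of the 8 at 1.5-fold or more, a distance reached by 353 of 12492 genes (2.83%). In TPM the ratio was 2.08. TPM also takes in the effective length of the gene, estimated as 8929 bases in replicate 1 and 7918 in replicate 2, and is scaled without TMM. With spike-in scaling the log2 ratio of the counts was 1.03, past 2-fold. The intervals cover counting error only, and with 2 libraries of 1 group there is no test of the difference.

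**Figure D4:**
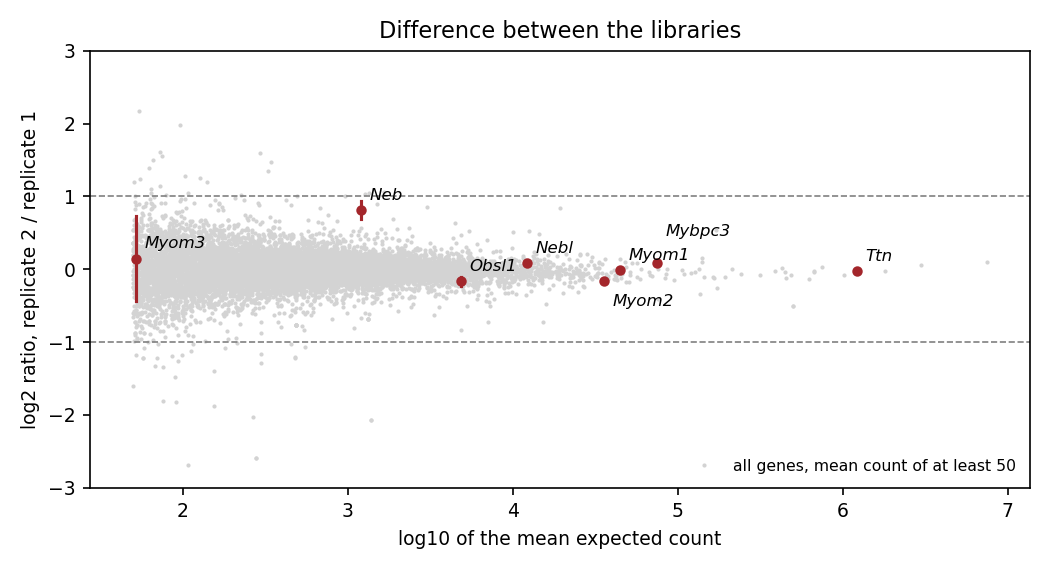
Log2 ratio of replicate 2 to replicate 1 against the log10 of the mean expected count, for all genes whose counts averaged 50 or more (grey) and the 8 genes (red, with 95% counting intervals). Dashed lines mark 2-fold, and 13 genes beyond the range of the axis are not drawn. Neb lies at 0.81, and the other 7 genes lie between -0.17 and 0.14.

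Markers of other muscle types also differed between the libraries. Of 12 skeletal muscle markers, 8 reached 1 TPM in both libraries, against 49.0% of protein-coding genes, and none was at 0. The summed level of the 12 was 29.4 TPM in replicate 1 and 22.8 TPM in replicate 2. The 8 skeletal markers whose counts averaged 50 or more were all higher in replicate 1 by scaled counts (median log2 ratio -0.62), in the direction opposite to Neb. By TPM 6 of these 8 were, and Cacna1s (5.68 and 6.28 TPM) and Ryr1 (0.262 and 0.282 TPM) were not. The fast myosin gene Myh4, for example, was at 3.32 and 2.24 TPM. All 5 atrial cardiomyocyte markers were higher in replicate 2, with a summed level of 1030 and 1696 TPM and a median log2 ratio of 0.52. All 5 smooth muscle markers were also higher in replicate 2, at 87.4 and 124 TPM in sum, with a median log2 ratio of 0.74. The atrial and smooth muscle markers moved in the direction of Neb, and their part in its difference was not tested.

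Of a list of 35 partners of titin and the M band, 32 reached 1 TPM in both libraries, against 49.0% of protein-coding genes. The median was 78.2 TPM over all 35 and 99.3 TPM over the 32. Myh6 and Tcap led the list, followed by Ckm, the muscle creatine kinase found at the M band (1152 and 1226 TPM), and Cryab, a small heat shock protein that binds titin (1101 and 1198 TPM). Lowest were Mybph, a myosin binding protein of skeletal muscle, with 6 and 1 counts, and Ankrd2, a stretch-responsive ankyrin repeat gene, with 7 and 1 counts. Capn3, the muscle calpain anchored on titin, stood at 1.38 and 1.23 TPM. Of the 32 whose counts averaged 50 or more, 0 lay 1.5-fold apart, against 2.83% of all genes. In this list 16 were higher in replicate 2 and 16 in replicate 1, and the median log2 ratio was 0.02, against -0.01 over all genes.

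Regulators of titin splicing were detected in full, 5 of 5, against 49.0% of protein-coding genes. Rbm20, which promotes the skipping of I band exons, stood at 82.8 and 89.8 TPM, and Mbnl1 at 72.9 and 79.2 TPM. Rbm24 stood at 64.4 and 65.0 TPM. Celf1 and Ptbp1 were lower, at 22.2 and 28.8 TPM and at 14.7 and 16.1 TPM. None of the 5 lay 1.5-fold apart between the libraries, against 2.83% of all genes. At that share, 0 of 5 does not set these genes apart.

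The deposited credibility bounds give a further view of precision. They lie around the posterior mean, another estimate in the same tables, and not around the TPM. For Ttn the bounds were 978 to 990 TPM in replicate 1 and 993 to 1006 TPM in replicate 2, below the TPM in each library. For Neb they were 2.54 to 3.56 TPM and 5.09 to 6.86 TPM, and these did not overlap.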

How the data were processed

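The authors deposited 3 tables per library: gene and transcript values from transcriptome alignments, and transcript values made directly from reads (mm10, GENCODE M21, per the labels and file headers). Per the file headers, the deposited values are expected counts (called estimated counts in the direct files), TPM and, for each transcript, its percent of the gene's TPM. The deposited credibility bounds of the TPM are treated as scores of the authors' quantifier. Aligner, quantifiers, versions and use of strand are not given in the sources used here.

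TPM was rescaled to endogenous genes, which held 99.4% of it in each library. Rounded counts were scaled by TMM (edgeR 4.0.16, R 4.3.3). Log2 ratios used a prior count of 2, and genes averaging at least 50 counts were compared. Counting intervals are 95% and exact. A gene was called detected at 1 TPM in both libraries. Direct counts and TPM were summed per gene. Of the genes' 31-base words, 0 to 1.70% occur in another gene, and none is shared among the 8. Python 3.11.15 was used with pandas 2.3.3, numpy 2.4.6, matplotlib 3.10.9 and scipy 1.17.1.

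On simulated data of 12495 genes, the 2-fold rule called 100% of 200 genes set 4-fold apart and 0 of 12295 unchanged genes. The spread between the simulated libraries was set by hand and not estimated from these data. The simulation therefore checks the calculation and gives no error rate for the real calls. The 8 genes and all lists were chosen with earlier results of these data known. Named were the 8 genes, their transcripts at 5% or more, the 2 nearest genes in level of Ttn, Mybpc3, Myom1 and Myom2, and of the partner and splicing lists the 4 highest, the 2 lowest and Mybpc1, Mybpc2, Rbm20, Tcap and Capn3. Other transcripts, the other splicing regulators, Myh4, Cacna1s, Ryr1 and Myl12a were named after their values were seen. CAST alleles and human transgenes were not analysed here.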

Additional observations from a re-analysis of the deposited data

How the results depend on the processing

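No paired analysis was possible because the series has 1 group and no contrast between groups. The order of the 8 genes was the same under every alternative run for it, each of which summed all transcripts of a gene. The counts of detected genes stayed within 1.5 times. With 1 library left out, a mean becomes 1 value with no spread, and those values stand in the report.

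In the direct tables the mean level was 837 TPM for Ttn, 34.3 for Obsl1, 128 for Nebl, 470 for Mybpc3 and 231 for Myom1. The posterior mean TPM was 992 for Ttn and 0.578 for Myom3. The main transcript's share in the direct tables was 37.8% for Ttn-201, 46.0% for Obsl1-202, 37.3% for Neb-202, 24.8% for Nebl-202, 99.4% for Mybpc3-203, 76.7% for Myom1-203 and 85.5% for Myom2-201. By posterior mean it was 23.2% for Neb-202, 28.2% for Nebl-202, 99.5% for Mybpc3-203 and 74.03% for Myom3-203. The coding share in the direct tables was 98.3% for Ttn, 74.2% for Obsl1, 94.7% for Neb, 46.3% for Nebl, 92.7% for Myom1 and 85.5% for Myom2. By expected counts it was 99.9% for Ttn, 86.9% for Obsl1, 96.6% for Neb, 94.7% for Nebl, 91.2% for Myom1, 99.1% for Myom2 and 24.5% for Myom3.

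Contrasts added after the data were seen gave, in the direct tables, 15.7% for the Myom1 exon and 35.7% for Ttn exon 11. They gave 7.37% for Nebl-201 against Nebl-202 and 44.0% for the I band fragments that hold exons 106 to 113. With a 10% minimum 21 transcripts passed in place of 32.

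Of 71 genes at least 2-fold apart, 30 were higher in replicate 2 and 41 in replicate 1. The count was 353 at 1.5-fold, 436 with a minimum of 10 counts and 2453 with none. With spike-in scaling it was 101, of which 73 were higher in replicate 2. The cause of these differences was not tested.

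Myom3, at 52 counts per library, is the gene most limited by depth.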
